A study of Mus musculus with 2 samples.

Results

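The tropomyosin family of the mouse, Tpm1, Tpm2, Tpm3 and Tpm4, was described in long-read RNA sequencing of gastrocnemius, a mostly fast-twitch calf muscle. The members were every deposited transcript model whose annotated gene was one of these 4 genes, of 15521 annotated genes read, and they comprised 236 of 94545 models in replicate 2 and 141 of 75169 in replicate 1. The libraries came from female B6CASTF1/J mice, which are hybrids of the C57BL/6J and CAST strains, aged 25 days, and each was made from 2 µg of total RNA. They are biological replicates 2 and 1 of 1 group, with separate biosample records that name the same donor record, so there was no contrast between conditions, and a test compares the reads of these libraries and not a treatment. The labels name no treatment or transgene, and spike-in RNA had been added to both libraries.

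Tropomyosins are coiled-coil proteins that lie end to end along actin filaments. In striated muscle they work with troponin to control the access of myosin to actin, while cytoskeletal forms, often shorter, mark other actin filaments in nearly all cells. Forms arise by a choice of first exon (1a, or the internal start 1b) and of exon 2a or 2b. Exon 6a or 6b and the last exon (9a to 9d) are chosen as well. Not every gene has every choice. Among the exons named here, 2a belonged to Tpm1 alone, Tpm2 had no 1b, and Tpm4 had only 1b, 6b and 9d of these alternatives. The striated-muscle forms join 1a, 2b, 6b and 9a. Tpm1 gives the alpha form of fast muscle, Tpm2 the beta form and Tpm3, with the same exon pattern, the alpha form of slow muscle. Tpm3 with 1b and 9d, Tpm2 with 6a and 9d, and Tpm4 are counted here as cytoskeletal forms. The Tpm2 form keeps 1a and 2b and so is not a shorter one. A long read covers a transcript from end to end, so the choices made in the same molecule are seen together.

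In mm10 with the GENCODE M21 annotation, Tpm1 (ENSMUSG00000032366.15) lies on chromosome 9 from 67022590 to 67049406 on the minus strand. Tpm2 (ENSMUSG00000028464.16) lies on chromosome 4 from 43514711 to 43523765 on the minus strand. Tpm3 (ENSMUSG00000027940.18) is on chromosome 3 from 90072649 to 90100902 and Tpm4 (ENSMUSG00000031799.9) on chromosome 8 from 72134975 to 72153142, both on the plus strand. Internal exons had the same length in every gene that has them: 126 bases for exon 2b, 134 for exon 3, 118 for exon 4, 71 for exon 5, 76 for exons 6a and 6b, 63 for exon 7 and 70 for exon 8. The striated-muscle transcripts of Tpm1, Tpm2 and Tpm3 each had 852 coding bases without the stop codon, and the leading transcript of Tpm4 had 744. Over those 852 bases Tpm1 and Tpm3 were identical at 80.4%, Tpm1 and Tpm2 at 78.5%, and Tpm2 and Tpm3 at 78.3%.

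The mutually exclusive exon 6 is shown because its choice differed between the libraries in Tpm3: the muscle form holds 6b, while cytoskeletal reads held 6a or 6b. Capitals mark the bases that differ from exon 6b of Tpm3. The exons are at chr3:90089048-90089123 (Tpm3 6b, plus strand), chr3:90088401-90088476 (Tpm3 6a, plus), chr9:67031951-67032026 (Tpm1 6b, minus), chr4:43518644-43518719 (Tpm2 6b, minus) and chr8:72146452-72146527 (Tpm4 6b, plus), all in mm10 and all coding.
Tpm3 exon 6b: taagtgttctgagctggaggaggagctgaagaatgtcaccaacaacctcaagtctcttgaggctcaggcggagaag
Tpm3 exon 6a: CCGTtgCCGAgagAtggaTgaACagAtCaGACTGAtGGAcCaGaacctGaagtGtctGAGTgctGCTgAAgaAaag
Tpm1 exon 6b: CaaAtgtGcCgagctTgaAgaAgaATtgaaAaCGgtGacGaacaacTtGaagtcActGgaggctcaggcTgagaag
Tpm2 exon 6b: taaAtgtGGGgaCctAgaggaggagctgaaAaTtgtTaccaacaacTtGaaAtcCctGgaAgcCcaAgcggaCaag
Tpm4 exon 6b: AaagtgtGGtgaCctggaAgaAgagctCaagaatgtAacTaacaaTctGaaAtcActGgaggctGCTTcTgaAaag
Exon 6a of Tpm3 differed from its own exon 6b at 37 of 76 bases. The 6b exons of the other genes differed from it at 19 bases in Tpm1, 18 in Tpm2 and 20 in Tpm4. Within each gene the alternatives were likewise further apart than the 6b exons of different genes, with 56.6% identity between 6a and 6b in Tpm1 and 53.9% in Tpm2.

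The coding parts of the alternative last exons of Tpm3 are shown for the same reason, in lower case throughout. They lie at chr3:90091013-90091091 (9a) and chr3:90099528-90099607 (9d), plus strand, mm10.
Tpm3 exon 9a: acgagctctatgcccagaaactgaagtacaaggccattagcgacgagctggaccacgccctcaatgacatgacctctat
Tpm3 exon 9d: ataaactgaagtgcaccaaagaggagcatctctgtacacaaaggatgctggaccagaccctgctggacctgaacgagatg
Exon 9a of Tpm1, at chr9:67029664-67029742 on the minus strand, was identical to that of Tpm3 at 70 of 79 bases. In both genes 1 further coding base lies in exon 9b, which is otherwise untranslated.

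After removal of spike-ins, replicate 2 held 1557594 reads and replicate 1 held 1069771. A gene or transcript with 0 reads could still stand at up to 1.93 CPM (reads scaled to a common library total of 1e6) in replicate 2 and 2.80 CPM in replicate 1, from the 3 reads that a count of 0 allows. These limits and the 95% Clopper-Pearson intervals below cover counting error only. Each read counts as 1 transcript, so levels were not divided by length. Of 11 tested fast-fibre genes, 6 were higher in replicate 2 and 5 were lower by the test described below, against 11.1% and 14.9% of all genes. All 11 had more than 500 reads over both libraries, and 80.1% of genes that deep passed. Their median log2 ratio was 0.69. The defining gene Myh4, at 7963 CPM in replicate 2 and 16360 in replicate 1, was among the lower. The heart list had 4 and 3 reads, all from Myh6. Over 8892 genes with 10 or more reads, the median log2 ratio of CPM, replicate 2 over replicate 1 with 0.5 reads added, was -0.18. It followed transcript length: 456 genes whose leading transcript was within 10% of that of Tpm3 (1139 bases) had a median of 0.47, and 941 genes near that of Tpm2 (2098 bases) had -0.15.

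Tpm1 carried most tropomyosin reads, followed by Tpm2, Tpm3 and Tpm4 in both libraries. The 4 genes took 2.94% of all reads in replicate 2 (45753 reads) and 2.17% in replicate 1 (23257 reads). Tpm1 had 36667 reads in replicate 2 and 17650 in replicate 1, or 23541 and 16499 CPM (mean 20020 ± 4979, SD, n = 2), and ranked 5 among all genes by mean level. Tpm2 had 6969 and 5345 reads, or 4474 CPM in replicate 2 and 4996 in replicate 1 (4735 ± 369), at rank 18. These muscle genes kept their order in each library, with intervals that did not overlap between genes.

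Tpm3 had 2048 reads in replicate 2 and 189 in replicate 1, or 1315 and 177 CPM (746 ± 805, rank 120). Tpm4 had 69 and 73 reads, or 44.3 CPM in replicate 2 and 68.2 in replicate 1 (56.3 ± 16.9, rank 1768). Relative to its mean Tpm3 had the widest spread of the 4 genes, with an SD above the mean. Within the family, Tpm3 made up 4.48% of the reads in replicate 2 and 0.813% in replicate 1. Tpm2 stood at 15.2% in replicate 2 and 23.0% in replicate 1, while Tpm1 stood at 80.1% and 75.9% and Tpm4 at 0.151% and 0.314%. None of these pairs of intervals overlapped, and the shares are bound to sum to the whole. In bulk tissue, fewer cells of a type and less RNA per cell cannot be told apart.

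**Figure D1:**
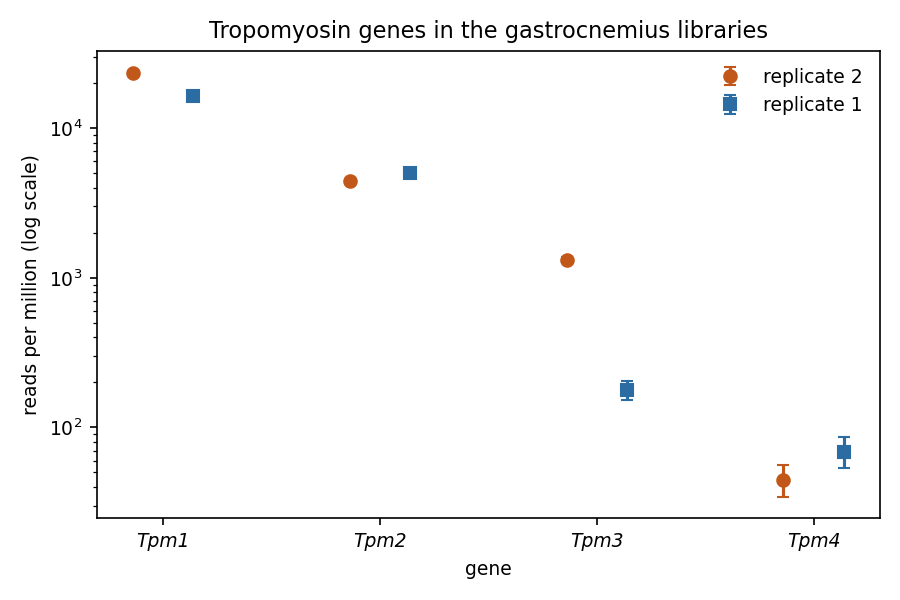
CPM (log axis) of each tropomyosin gene, replicate 2 left and replicate 1 right, with 95% Clopper-Pearson intervals where wider than the symbol. Tpm1 (23541 and 16499 CPM) and Tpm2 (4474 and 4996) lie close between the libraries, whereas Tpm3 is at 1315 CPM in replicate 2 and 177 in replicate 1.

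Set against the rest of each library, all 4 genes passed the two-sided Fisher's exact test (Benjamini-Hochberg adjustment over 8892 genes, threshold 0.05), against 26.0% of all genes tested. Among the 512 genes with 500 or more reads, 80.1% passed, so a call was common among deep genes. Tpm1 and Tpm3 were higher in replicate 2, where 11.1% of all genes were, and Tpm2 and Tpm4 were lower, where 14.9% were. Trimmed-mean (TMM) scaling moved the median of all genes to 0.00 and the higher share of the calls to 60.2%, against 42.5% with library totals. The log2 ratio was 0.51 (interval 0.49 to 0.54, adjusted p at or below 1e-300, Fisher's exact test) for Tpm1. Genes of like length had a median of 0.40, and 57.7% of them lay below Tpm1.

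Tpm2 had a log2 ratio of -0.16 (interval -0.21 to -0.11, adjusted p 2.47e-08, Fisher's exact test), beside a like-length median of -0.15, and it turned to 0.02 under TMM and under DESeq2 size factors. For Tpm3 the ratio was 2.89 (2.68 to 3.12, adjusted p 6.62e-257, Fisher's exact test), above 99.6% of the genes of like length. For Tpm4 it was -0.62 (-1.12 to -0.13, adjusted p 0.0416, Fisher's exact test), beside a like-length median of -0.15, with an adjusted p of 0.204 under TMM. With edgeR's exact test and a dispersion of 0.04, an assumed value since the spread between animals was not measured, Tpm3 still passed (adjusted p 1.02e-07). Tpm1, Tpm2 and Tpm4 then did not (adjusted p 0.624, 0.964 and 0.620 by edgeR's exact test).

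Reads of these genes matched the annotation more often than reads in general. Of the tropomyosin reads, 94.1% in replicate 2 and 95.7% in replicate 1 followed an annotated intron chain, against 71.0% and 65.3% of the reads of all annotated genes. Chains with a splice site outside the annotation (class NNC of the TALON annotator) took 1.35% and 1.14% of tropomyosin reads, against 2.60% in replicate 2 and 18.8% in replicate 1 over all genes. Incomplete chains (class ISM, a contiguous part of an annotated chain) took 3.87% in replicate 2 and 2.21% in replicate 1, against 12.3% and 8.51% over all genes. Tpm2 had the highest share of the 4 genes, 9.53% and 4.57%, of which 282 and 49 reads held a single exon. For Tpm1 they began throughout the gene, with 350 and 57 reads starting in exon 5, the commonest place in replicate 2; in replicate 1 exon 3 also had 57. Reads of the remaining class, Genomic, numbered 0 of 6969 for Tpm2 in replicate 2, which allows up to 0.0430%, and 62 of 5345 in replicate 1 (1.16%). The exon choices below use complete chains, which are annotated chains, new combinations of annotated splice sites (class NIC) and NNC chains.

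In Tpm1 nearly every molecule was the striated-muscle form. The transcript Tpm1-205 (exons 1a, 2b, 6b, 9a and 9b) had 34926 of 35508 complete-chain reads in replicate 2, a share of 98.4%, and 98.6% in replicate 1. Exon 1b was found in 10 of 35490 reads in replicate 2 and 7 of 17342 in replicate 1. Exon 6a was found in 1 read in each library. The smooth-muscle exon 2a had 6 of 35491 reads (0.0169%) in replicate 2 and 11 of 17344 (0.0634%) in replicate 1. Exon 9d without 9a ended 20 reads in each library, or 0.0563% and 0.115%. Exon 9b joined directly to exon 8 in 40 of 35502 reads in replicate 2 and 19 of 17351 in replicate 1, or 0.113% and 0.110% of the complete chains of Tpm1 with a resolved last exon. The intervals of the exon 2a shares overlapped between the libraries. Of the smooth-muscle and pericyte genes described below, 5 of 9 tested were lower in replicate 2, against 14.9% of all genes, and their part in the exon 2a reads was not tested.

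Tpm2 was likewise led by its striated-muscle form. Tpm2-202 (1a, 2b, 6b and 9a) took 96.5% of complete chains in replicate 2 (6085 of 6305 reads) and 96.4% in replicate 1. The cytoskeletal transcript Tpm2-203, with 6a and 9d, had 8 reads in replicate 2 and 14 in replicate 1, or 0.127% and 0.278%, with overlapping intervals. All 8 reads of replicate 2 and all 14 of replicate 1 that carried 6a with 9d began in exon 1a, and only 1 read in each library joined 6b to 9d. A first exon upstream of 1a, spliced into it, was found in 122 reads of replicate 2 (1.94%) and 108 of replicate 1 (2.14%). In 70 and 62 of those, the upstream donor at 43523701 joined the acceptor at 43523373 on chromosome 4. Both sites belong to the annotated Tpm2-206. Another 36 and 23 reads joined the same donor to an acceptor at 43523421, 48 bases further upstream in the transcript. Both complete chains are outside the annotation, with 69 and 36 reads in replicate 2 for the most read chain of each acceptor, at 44.3 and 23.1 CPM, against 58.0 and 21.5 CPM in replicate 1.

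The forms of Tpm3 differed between the libraries. Exon 1a began 1968 of 1996 complete chains in replicate 2, 98.6% (98.0 to 99.1), and 144 of 184 in replicate 1, 78.3% (71.6 to 84.0). Exon 1b, the cytoskeletal start, was accordingly at 1.40% and 21.7%. Exon 6a had 21 of 1983 reads in replicate 2 (1.06%, 0.657 to 1.61) and 26 of 184 in replicate 1 (14.1%, 9.44 to 20.0). Exon 9d without 9a had 21 of 1986 reads in replicate 2 (1.06%) and 37 of 184 in replicate 1 (20.1%). For the first, sixth and last exon alike, the intervals of the libraries did not overlap. Exon 9d was also read after exon 9a, in 23 reads of replicate 2 (1.16%) and 2 of replicate 1 (1.09%).

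**Figure D2:**
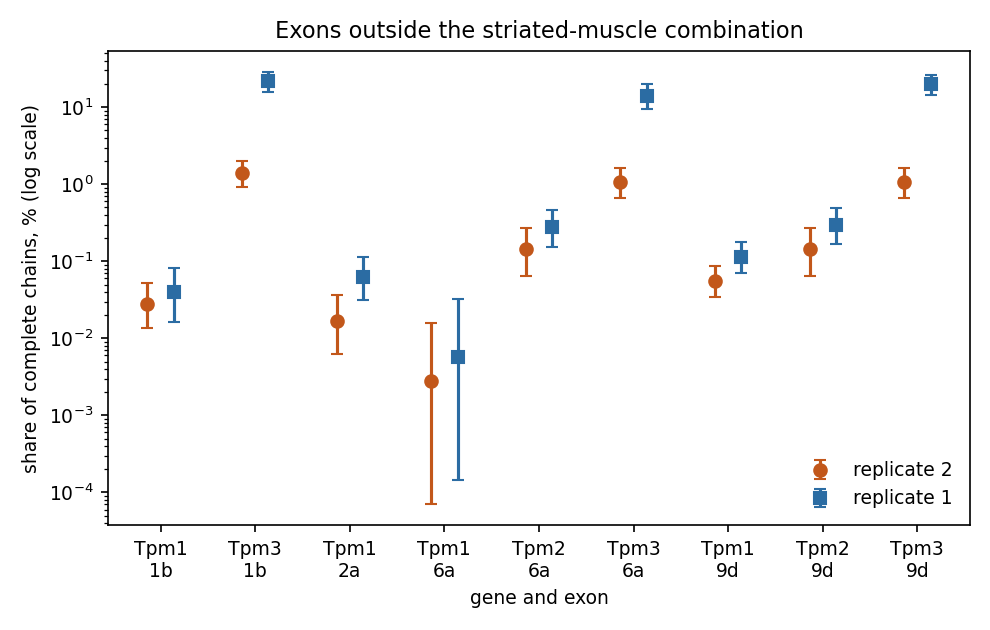
Share of complete chains (percent, log axis) with exons 1b, 2a, 6a and 9d, which the striated-muscle combination lacks, replicate 2 left and replicate 1 right, with 95% Clopper-Pearson intervals. Tpm3 stands between 1.06% and 1.40% in replicate 2 and between 14.1% and 21.7% in replicate 1, and the plotted shares of Tpm1 and Tpm2 lie below 0.3%.

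The choices were linked along single Tpm3 molecules. Of reads that began in exon 1a and resolved all choices, 1932 of 1950 (99.1%) in replicate 2 and 144 of 144 in replicate 1 held 6b and ended in 9a or 9b. Of reads that began in exon 1b, 20 of 28 in replicate 2 and 26 of 40 in replicate 1 held 6a and ended in 9d. A further 6 of 28 and 13 of 40 joined 1b to 6b and 9d, and 2 and 1 reads joined 1b to 6b and 9a or 9b. Exon 6a thus occurred behind exon 1a in 1 read of replicate 2 and in none of replicate 1.

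Intron chains were tested for their share within the gene by a two-sided Fisher's exact test over 7515 chains of all genes, of which 1.14% passed. Of the tropomyosin chains, 3 of 10 tested passed for Tpm3, 1 of 21 for Tpm1, 0 of 11 for Tpm2 and 0 of 1 for Tpm4. Tpm3-205, the slow-muscle form of 1139 bases, had 1887 of 2001 reads in replicate 2 (94.3%) and 76.6% of 184 in replicate 1 (adjusted p 8.40e-11, Fisher's exact test). Tpm3-201, a cytoskeletal form with 1b, 6a and 9d and 2230 bases, fell to 0.800% in replicate 2, against 13.6% in replicate 1 (adjusted p 6.14e-15, Fisher's exact test). A chain outside the annotation, with 1b, 6b and 9d in the same order as the leading Tpm4 transcript, fell to 0.250% (5 reads) in replicate 2, against 6.52% (12 reads) in replicate 1 (adjusted p 1.38e-07, Fisher's exact test). Another chain outside the annotation, the muscle form ending in 9d after 9a, had 17 reads in replicate 2 and 0 in replicate 1, where a count of 0 allows up to 1.63% of the gene, and its share did not pass (adjusted p 1.00, Fisher's exact test).

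Shares within a gene are bound together, so the levels were also taken. Complete chains with the striated-muscle combination of Tpm3 had 1924 reads in replicate 2 and 143 in replicate 1, or 1235 and 134 CPM, a log2 ratio of 3.20 (2.96 to 3.46). The cytoskeletal combinations of Tpm3 had 26 and 39 reads, or 16.7 CPM in replicate 2 and 36.5 in replicate 1, a log2 ratio of -1.12 (-1.90 to -0.37). These intervals, which cover counting error only, lay on opposite sides of 0. Tpm3-205 stood 2.73 above the median log2 ratio of genes of like length, and Tpm3-201 stood at -0.97 relative to its own (-1.17 against -0.20 over 941 genes).

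Tpm4, a gene with cytoskeletal forms alone, was read as Tpm4-201 in 63 of 66 complete chains in replicate 2 (95.5%) and in 72 of 72 in replicate 1, or 40.4 and 67.3 CPM. Its log2 ratio was -0.73 (-1.25 to -0.23), beside a like-length median of -0.15. The 3 remaining chains, 1 read each and all in replicate 2, lay outside the annotation. Among them 1 held the exon 4 shift described below. Every complete chain that resolved the choice used 1b, 6b and 9d.

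Over the 4 genes, striated-muscle combinations made up 99.5% of resolved complete chains in replicate 2 and 99.2% in replicate 1. Counted as cytoskeletal were chains with neither 1a nor 9a with 9b in Tpm1 and Tpm3, 6a with 9d in Tpm2, and 1b with 9d in Tpm4. The remaining chains were called mixed by this rule alone. They had 98 reads in replicate 2 (0.224%, 62.9 CPM) and 47 in replicate 1 (0.208%, 43.9 CPM), a log2 ratio of 0.51 (0.00 to 1.05). Among them were Tpm1-216 (1a, 2b, 6b and 9d), with 8 and 5 reads, and Tpm1-215 (1a, 2a, 6b and 9d), with 3 and 10. The cytoskeletal count of Tpm1 thus leaves out chains with 1a and 9d, which that of Tpm2 includes where they hold 6a. Cytoskeletal combinations came to 108 reads (0.246%, 69.3 CPM) in replicate 2 and 130 reads (0.575%, 122 CPM) in replicate 1, a log2 ratio of -0.81 (-1.19 to -0.43). Tpm4 gave 65 and 72 of these reads, Tpm3 gave 26 and 39, Tpm2 gave 8 and 14, and Tpm1 gave 9 and 5. Summed markers of several other cell types were also lower in replicate 2. Their calls are to be read against the 11.1% of all genes that were higher and the 14.9% that were lower. The smooth muscle and pericyte list summed to 277 CPM in replicate 2 and 438 in replicate 1, with 0 of 9 tested genes higher, 5 lower and 4 not passing, and its defining gene Myh11 at 1.28 and 15.0 CPM. The fibroblast list stood at 3695 and 5849 CPM, with 2 of 7 higher and 3 lower. The 2 higher were Dcn (363 CPM in replicate 2 and 205 in replicate 1) and Col1a2 (400 and 217 CPM), and the 3 lower were Col3a1, Lum and Gsn. Col3a1 alone had 706 CPM in replicate 2 and 2665 in replicate 1, and the defining gene Pdgfra, at 5.78 and 12.2 CPM, did not pass. The endothelial list stood at 45.6 and 88.8 CPM, with 0 of 5 higher and 1 lower, a share near that of all genes, namely its defining gene Pecam1 at 7.70 and 32.7 CPM. The part of these cells in the cytoskeletal tropomyosin reads was not tested. The leukocyte list, by contrast, had 86.0 CPM in replicate 2 and 58.9 in replicate 1, with its defining gene Ptprc at 1 and 0 reads. Platelet and red cell genes had 360 and 997 CPM, with 3 of 4 tested genes lower. Those 3 were the red cell genes Hbb-bs, Hba-a1 and Alas2. The platelet gene Pf4, at 14.8 CPM in replicate 2 and 7.48 in replicate 1, did not pass, and Ppbp had no reads.

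**Figure D3:**
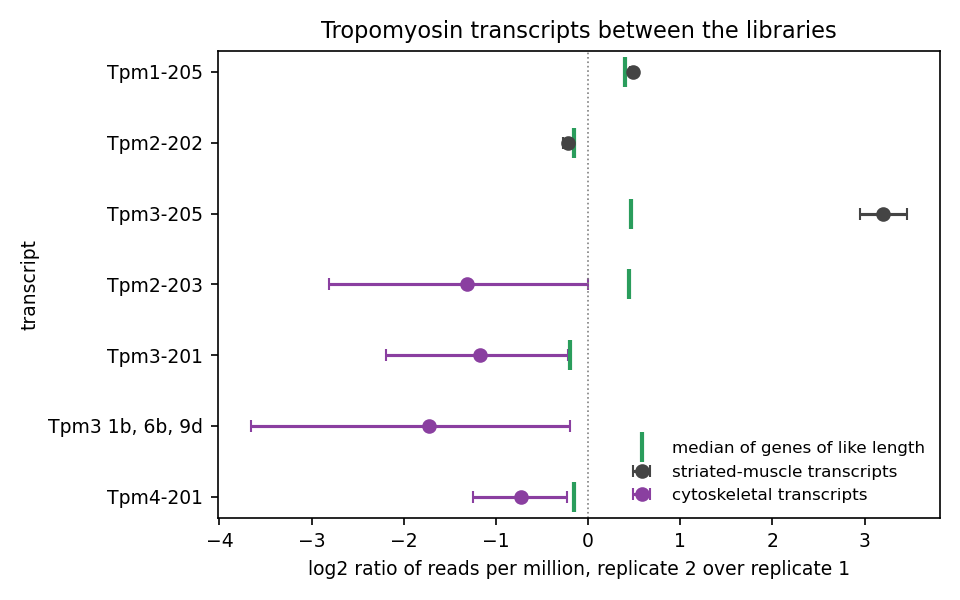
Log2 ratio of CPM, replicate 2 over replicate 1, for the named transcripts with 95% intervals from counting error, and the median of genes of like length as a green tick. Tpm3-205 (3.20) lies far right of its tick (0.47), Tpm1-205 (0.49) and Tpm2-202 (-0.22) lie near theirs, and the cytoskeletal transcripts lie left of 0, the interval of Tpm2-203 reaching 0.00.

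Slow members of other muscle gene families were set beside Tpm3, as its share of striated-muscle tropomyosin. Tpm3 made up 4.41% of those reads in replicate 2 (1924 of 43614) and 0.637% in replicate 1 (143 of 22441). Tnnt1, the slow troponin T, made up 55.5% of Tnnt1 and Tnnt3 reads in replicate 2 and 11.1% in replicate 1. The slow inhibitory subunit Tnni1 stood at 7.42% and 1.56% of its pair with Tnni2. Tnnc1, the slow calcium-binding subunit, was at 3.30% of its pair with Tnnc2 in replicate 2 and 0.644% in replicate 1. Thus the slow share of thin filament transcripts ran from 3.30% to 55.5% in replicate 2 and from 0.637% to 11.1% in replicate 1, depending on the protein.

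Outside the thin filament, the slow myosin heavy chain Myh7 was at 6.20% and 1.34% of the reads of 4 adult myosin genes, and the regulatory light chain Myl2 at 1.38% and 0.247% of its pair with Mylpf. The calcium pump Atp2a2 had 0.364% and 0.0621% of its pair with Atp2a1. For all 7 shares the value in replicate 2 was higher and the intervals did not overlap. The fast partners did not move alike. Myh1 (log2 ratio -2.35), Myh2 (-0.74), Myh4 (-1.04) and Atp2a1 (-1.49) were lower in replicate 2, whereas Mylpf (0.72) was higher. The shares of Myh7 (log2 ratio 0.96) and Atp2a2 (1.07) thus rose through lower denominators as well. Of the slow-fibre list, 8 of 8 tested genes were higher in replicate 2, against 11.1% of all genes, with a median log2 ratio of 3.11. All but Atp2a2 had 500 or more reads over both libraries, a depth at which 80.1% of genes passed in either direction. The fast-fibre list had 6 of 11 higher and 5 lower, against 11.1% and 14.9% of all genes, with a median of 0.69. The 5 lower were Myh1, Myh2, Myh4, Atp2a1 and Actn3. The sum of the list was lower in replicate 2 (159793 CPM) than in replicate 1 (240879 CPM). That direction rested on Atp2a1 (56409 CPM in replicate 2 and 157924 in replicate 1), whose fall exceeded that of the sum. Tendon genes moved with the slow-fibre genes: 6 of 6 tested were higher, against the same 11.1%, summing to 436 CPM in replicate 2 and 83.2 in replicate 1, with the defining gene Tnmd at 57.1 and 4.67 CPM. Their part in the Tpm3 difference was not tested.

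**Figure D4:**
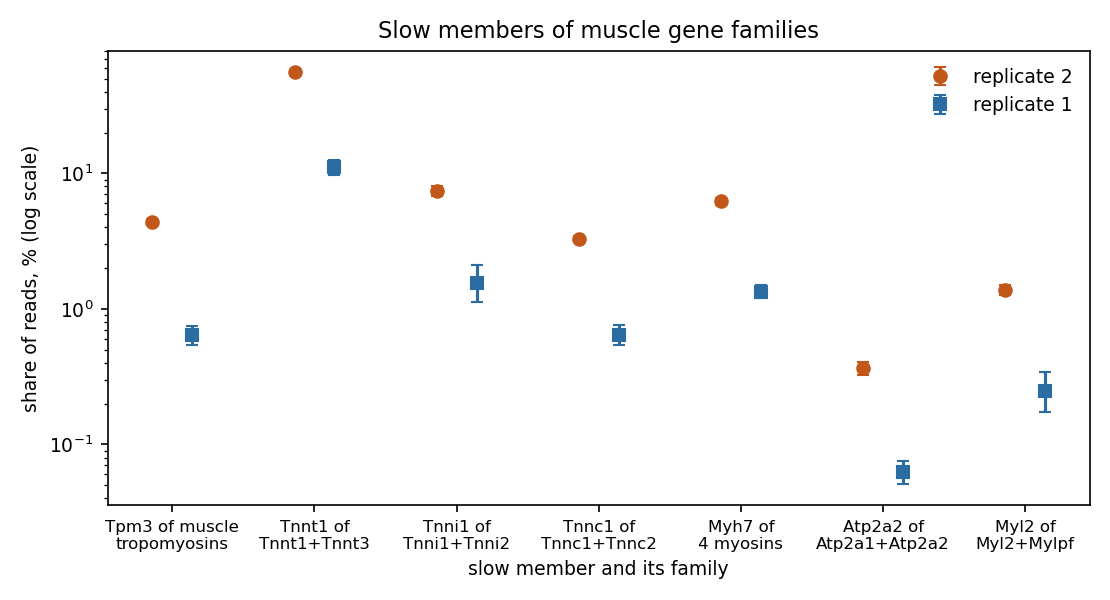
Share of reads (percent, log axis) that the slow member takes in each muscle gene family, replicate 2 left and replicate 1 right, with 95% Clopper-Pearson intervals where wider than the symbol. The myosin family holds Myh7, Myh1, Myh2 and Myh4. In all 7 families replicate 2 is higher, with Tpm3 at 4.41% and 0.637%.

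The partners of tropomyosin on the thin filament were read from lists. All 6 troponin genes that could be tested were higher in replicate 2, against 11.1% of all genes, with a median log2 ratio of 1.97 beside -0.18 over all genes. Each had 500 or more reads over both libraries, a depth at which 80.1% of genes passed in either direction. The ratios were 0.93, 0.69 and 0.85 for the fast genes Tnnc2, Tnni2 and Tnnt3. For the slow genes Tnnc1, Tnni1 and Tnnt1 they were 3.32, 3.02 and 4.17. The trend with transcript length was not removed from these ratios or from the numbers of reads per tropomyosin read below. The most read by mean level were Tnnc2 (35377 and 18604 CPM), Tnni2 (4005 and 2474 CPM) and Tnnt3 (2763 and 1528 CPM). Tnnt1, with 3445 CPM in replicate 2 and 191 in replicate 1, exceeded Tnnt3 in replicate 2 alone. The cardiac genes Tnni3 and Tnnt2 had no reads in either library. Striated-muscle tropomyosin summed to 28001 CPM in replicate 2 and 20977 in replicate 1 (24489 ± 4966, SD, n = 2). For each such read there were 1.31 troponin C reads in replicate 2 and 0.893 in replicate 1. The corresponding numbers were 0.154 and 0.120 for troponin I, and 0.222 and 0.0819 for troponin T. Sarcomeric actin, Acta1 with Actc1, had 2.70 reads in replicate 2 and 3.53 in replicate 1 for each tropomyosin read.

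Among 6 actin genes, skeletal Acta1 had 75267 and 73992 CPM, log2 ratio 0.02 (adjusted p 9.63e-04, Fisher's exact test), and Actc1, the cardiac actin, had 275 and 120 CPM (1.20). The smooth-muscle actin Acta2 fell to 37.2 CPM in replicate 2, against 77.6 in replicate 1. The cytoskeletal actins did not pass, with Actg1 at 112 and 130 CPM (log2 ratio -0.21) and Actb at 81.5 and 104 CPM (-0.35). Among the proteins that cap or measure the filament, Tmod4 (297 and 226 CPM) was higher in replicate 2, whereas Tmod1 (161 and 236 CPM) and the giant protein nebulin, Neb (132 and 186 CPM), were lower. Tmod3 (-1.03), Lmod1 (-0.15), Lmod2 (0.06) and Lmod3 (-0.06) did not pass, and Tmod2 and Nebl had no reads.

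Of 13 tested genes for actin filament turnover, 0 were higher in replicate 2, 4 were lower and 9 did not pass, against 11.1% and 14.9% of all genes. The most read were the capping protein genes Capza2 (563 and 650 CPM, lower) and Capzb (388 and 351 CPM), and the muscle cofilin Cfl2 (495 and 509 CPM). Besides Capzb (log2 ratio 0.14) and Cfl2 (-0.04), those that did not pass were Cfl1 (0.01), Pfn1 (0.18), Pfn2 (-0.17), Capza1 (-0.84), Twf1 (-0.97), Twf2 (0.40) and Coro1b (-0.85). Of 9 splicing factors known to bind tropomyosin transcripts, 1 was higher and 1 lower, shares near the 11.1% and 14.9% of all genes. Rbpms, with 43 and 11 reads, was higher (27.6 and 10.3 CPM, log2 ratio 1.38, adjusted p 0.0115, Fisher's exact test). Qk was lower (99.5 and 142 CPM, -0.51, adjusted p 0.0113, Fisher's exact test). The others did not pass: Mbnl1 (78.3 and 96.3 CPM), Rbfox1 (25.7 and 31.8 CPM), Rbfox2, Celf1, Raver1, Ptbp1 and Ptbp2. Ptbp1, a repressor of muscle exons, had 7 reads in replicate 2 and 5 in replicate 1.

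The genes whose log2 ratio lay nearest to each member were sought among those with 500 or more reads, over these 2 libraries alone. Nearest to Tpm3 (2.89) were the slow troponin I gene Tnni1 (3.02), the gene Gm12338 (3.17) and the slow light chain gene Myl2 (3.20). Tpm1 (0.51) was next to the transcription cofactor Vgll2 (0.51), the glutaredoxin Glrx3 (0.52) and the mitochondrial Ndufab1 (0.52). Tpm2 (-0.16) was next to Srpr (-0.16), Tmem38a, a channel of the sarcoplasmic reticulum (-0.15), and Hfe2 (-0.15). For Tpm4 (-0.62) they were the tubulin Tuba8 (-0.62), the kinase Map2k3 (-0.62) and the glycogen enzyme Ugp2 (-0.63). Of the 511 or 512 genes to choose from, the nearest differed from Tpm3 by 0.124 and from Tpm1 by 0.0013, on the log2 scale.

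A shift of 2 bases into exon 4 recurred at the same acceptor of every member. The first 20 bases of exon 4 are shown because in all 4 genes they open with a second AG, the letters that end an intron, in capitals here. They are at chr9:67033974-67033993 (minus strand), chr4:43519487-43519506 (minus), chr3:90087455-90087474 (plus) and chr8:72143450-72143469 (plus), mm10.
Tpm1 exon 4: AGgcatgaaagtcattgaaa
Tpm2 exon 4: AGgaatgaaggtcattgaaa
Tpm3 exon 4: AGgtatgaaggtgattgaaa
Tpm4 exon 4: AGgcatgaaggtaatagaga
In Tpm1 the shifted acceptor had 267 of 35504 reads in replicate 2 (0.752%) and 122 of 17353 in replicate 1 (0.703%). In Tpm2 it had 38 and 23 reads, 0.603% and 0.456%. Tpm3 showed 6 reads in replicate 2 and 0 of 184 in replicate 1, and Tpm4 showed 1 read in replicate 2 and 0 of 72 in replicate 1. For Tpm1 and Tpm2 the intervals of the libraries overlapped, and for Tpm3 and Tpm4 the counts of 0 allow shares of up to 1.63% and 4.17% in replicate 1. The chain of Tpm1 with this shift alone was its most read chain outside the annotation, at 163 and 111 CPM, and the same chain of Tpm2 had 23.8 and 20.6 CPM.

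Other shifted sites were also read. A donor 4 bases beyond the end of exon 2b of Tpm1 had 43 reads in replicate 2 (0.121%) and 6 in replicate 1 (0.0346%). The chain with that shift alone had 33 and 2 reads and was the Tpm1 chain that passed the share test (adjusted p 0.0237, Fisher's exact test). The other named chain outside the Tpm1 annotation, with a shifted site at exon 3, had 26 and 3 reads and did not pass. In Tpm3 a donor 40 bases beyond exon 9a had 13 reads in replicate 2 (0.665%) and 1 in replicate 1 (0.685%).

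The starts of Tpm3 transcripts lie at separate promoters, shown because transcripts from exons 1a and 1b differed in opposite directions between the libraries. The sequences are the 250 bases before the RefSeq starts (GRCm38.p6, plus strand), at chr3:90072401-90072650 for the 1a start and chr3:90079271-90079520 for the 1b start, with capitals for the E-box CANNTG.
Tpm3 promoter 1a: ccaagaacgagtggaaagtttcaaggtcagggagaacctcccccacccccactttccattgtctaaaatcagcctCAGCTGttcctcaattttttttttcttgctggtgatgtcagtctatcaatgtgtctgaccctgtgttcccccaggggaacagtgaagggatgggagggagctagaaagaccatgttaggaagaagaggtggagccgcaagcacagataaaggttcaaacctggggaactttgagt
Tpm3 promoter 1b: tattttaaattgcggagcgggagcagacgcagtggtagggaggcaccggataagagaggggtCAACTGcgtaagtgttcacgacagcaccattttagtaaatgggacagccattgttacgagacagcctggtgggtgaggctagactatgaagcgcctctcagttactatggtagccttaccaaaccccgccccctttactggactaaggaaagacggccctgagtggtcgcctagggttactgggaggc
Searched on both strands, each window held 1 E-box, which 66.2% of 32817 RefSeq promoter windows of that length hold. Neither held the MCAT letters CATTCC (12.6% of windows) or a MEF2-like motif (3.20%). The Tpm1 window held 1 E-box and 1 MCAT match, the Tpm2 window 1 E-box and the Tpm4 window none of the motifs. GC content was 48.8% before the 1a start and 53.6% before the 1b start of Tpm3, against 65.2% in Tpm1, 69.6% in Tpm2 and 78.8% in Tpm4.

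Tpm3-rs7, an annotated copy related to Tpm3, was counted apart from the members, with 7 reads in replicate 2 and 9 in replicate 1, so reads may be divided between it and Tpm3.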

How the data were processed

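Platform, aligner, tool versions and read filters: not given in the sources used here. The deposited tables hold raw counts of long reads per transcript model, whole numbers with no normalization, each from 1 library. Per the file headers and deposited notes, models were made on mm10 with GENCODE M21. TALON is the source named in the gene models.

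Models with the same chromosome, strand and introns were taken as the same chain, and ERCC spike-in sequences were left out. Gene counts were sums over models. Exons were named from M21 transcripts. Genes with 10 or more reads and chains with 5 or more reads, in genes with 20 or more complete-chain reads in each library, were compared by two-sided Fisher's exact tests with Benjamini-Hochberg adjustment over all genes or all chains. p-values under 1e-300 are written as 1e-300. Alternatives used edgeR 4.0.16 and DESeq2 1.42.0 (R 4.3.3), other steps Python 3.11.15, numpy 2.4.6, pandas 2.3.3, SciPy 1.17.1 and matplotlib 3.10.9. The tests were also run on simulated counts with planted changes and counting error alone. Such counts hold no spread between animals, so they cannot show how often replicates of 1 group would be called different. Promoters came from RefSeq, exons from M21 transcripts.

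The members and lists were chosen with earlier results of these data known. Named were the 4 genes, chains with 2% or more of a gene's complete-chain reads and 5 or more reads, the 3 most read chains outside the annotation of each gene, the 3 most read genes of each list and every gene that did not pass, and the 3 genes with the nearest ratio. Annotated minor chains and defining markers were also named, and list members outside the rule were chosen after their values were seen. Only the labels say that the libraries are biological replicates. The p-values of Fisher's exact test allow for counting error in the reads of these libraries alone and measure no spread between animals. The sequence of the first exons is not reported here.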

Additional observations from a re-analysis of the deposited data

How the results depend on the processing

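Over 45 results, 160 alternatives that leave out no library were computed, and 136 of them were called the same. A tested result had to keep its direction and side of the threshold, or its direction alone when set against genes of like length. Levels and exon shares had to move no more than the spread between replicates. Counts of genes or chains had to stay within a set fold of the main count. That spread came from 2 libraries, and for the level of Tpm3 (746 ± 805 CPM) it was wider than the mean. The log2 ratio of Tpm3 passed under every test run. With the dispersion fixed at 0.04 in edgeR's exact test, the log2 ratios of Tpm1 (0.51), Tpm2 (-0.16) and Tpm4 (-0.62) no longer passed. Under TMM and DESeq2 size factors Tpm2 turned to 0.02 in both and Tpm4, at -0.44 in both, no longer passed. Without a count minimum Tpm4 (-0.62) did not pass either (adjusted p 0.0713, Fisher's exact test), where 15521 genes were tested. Set against genes of like length, a setting added after seeing the data, the ratios were 0.11, -0.01, 2.42 and -0.48 for Tpm1 to Tpm4. Genes that differed numbered 2311, and 200 with edgeR's exact test, where 1327 had an unadjusted p under 0.05. Chains that differed numbered 86, 50 without a chain minimum, 35 with annotated transcripts alone and 434 against all reads of the gene, which adds incomplete reads to the denominator. With that denominator the share of Tpm2-202 turned to -3.61 percentage points and passed, Tpm1-205 passed at -1.67 points, against -0.199 over complete chains, Tpm1-215 passed (adjusted p 0.0299, Fisher's exact test), and 7 tropomyosin chains passed in place of 4. The share of Tpm1-205 turned to 0.0643 points with annotated transcripts alone, and the exon 2b chain of Tpm1 did not pass without a chain minimum (adjusted p 0.110, Fisher's exact test). With annotated transcripts alone, which leaves the other chains out, exon 1a stood at 99.97% in Tpm1 (99.96% over all complete chains) and 100% in Tpm2, the last exons 9a and 9b of Tpm1 at 99.83%, and the leading combination at 99.83% in Tpm1 and 99.79% in Tpm2. With models of 2 or more reads, exon 1a of Tpm1 stood at 99.97% and exon 6b at 100%. No paired analysis was possible because there is 1 group. With n = 2, leaving out a replicate gives the other library's value, stated in the report, which by construction lies within 1 SD of the mean and says nothing of stability. Tpm3 had 184 complete-chain reads in replicate 1, which limits its exon shares there.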
